A study of Mus musculus with 18 samples.

Results

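Mitochondrial ribosomal proteins are encoded by genes named Mrpl or Mrps, and 74 of the 12393 genes represented on the array belong to this family. They were chosen by symbol alone: every probe set with a single gene symbol that begins with Mrpl or Mrps and a digit. This gave 127 probe sets of the 20380 with 1 symbol, and each gene was represented by its probe set of highest mean log2 signal. Of the 74 genes, 47 carry an Mrpl symbol and 27 an Mrps symbol.

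The RNA came from lumbar spinal motor neurons of mice, 1000 per animal, isolated by laser capture, with 1 array per animal. G93A mice carry a transgene for mutant human SOD1, a model of familial amyotrophic lateral sclerosis, and the controls were littermates without the transgene. Both genotypes were studied at 60, 90 and 120 days of age, with 3 animals in each of 6 groups and 18 arrays in all. The transgene is active throughout the body, not only in motor neurons, and the labels name no further allele or treatment. P-values measure the spread between these animals, and the number of arrays limits the precision.

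The mitochondrial ribosome makes the membrane proteins encoded by mitochondrial DNA, which are core subunits of the respiratory chain and of ATP synthase. Its RNAs come from mitochondrial DNA, but all of its proteins are encoded in the nucleus, made in the cytosol and imported. The small subunit reads the messenger RNA, and the large subunit joins the amino acids. Some of the proteins descend from those of bacterial ribosomes, and others were gained by mitochondria. Motor neurons have long axons and a high demand for ATP, and mitochondrial changes are a known feature of SOD1 G93A motor neurons.

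In these arrays, no mitochondrial ribosomal protein gene differed between G93A and control motor neurons at an adjusted p below 0.05, at any age. Few of all tested probe sets did so either: 0.688%, 0% and 0.0241% at 60, 90 and 120 days. Between 60 and 120 days limma called 4 members in controls and 2 in G93A animals, or 5.48% and 2.74% of those tested, near the 6.71% and 2% of all tested probe sets. For Mrpl51, among these 6, the other probe sets went the opposite way. For Mrpl11 the next brightest probe set went the same way, and another was called the opposite way. The small-subunit gene Mrps14 was the only member whose genotype difference changed with age under that threshold. This was 1.37% of those tested, beside 0.417% of all tested probe sets. The call was lost when any 1 of 12 of the 18 arrays was left out, and a second Mrps14 probe set did not share it. Levels of 9 members differed among the 6 groups, or 12.3% of those tested, beside 8.95% of all tested probe sets. The calls of Mrps14, Mrpl52, Mrpl34 and Mrps22 held when any single array was left out. For several of these genes a second probe set gave another pattern, as described beside each.

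Values are the authors' signals on a linear scale, and differences are on the log2 scale with their standard error from limma, n = 3 animals per group. A gene was tested if it exceeded the array median on 3 or more of the 18 arrays, and 73 of the 74 did. The untested gene was Mrps6, whose signals ran from 4 to 37.9 and lay under the array median everywhere. Signals of 38 members lay above the median in all 18 arrays, those of 29 in 9 to 17 arrays, and those of 6 in 3 to 8 arrays. In each array 53 to 68 of the 74 members were above the median. Members varied less between animals of a group than all tested genes, with a median within-group SD of 0.545 log2 units against 0.772 over all 10020 genes. Members were also brighter, with group means of log2 signal from 6.99 to 7.31 against 5.73 to 6.03 for all genes. The spread was not compared at equal signal. Among members the within-group SD was lowest for Mrpl48, at 0.195, and highest for Mrpl12, at 1.40.

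Correlations between arrays over all tested probe sets were 0.641 to 0.838 within groups and 0.539 to 0.864 between groups. Among 9 motor neuron markers, Nefl, Nefm, Nefh and Prph were above the median in all 18 arrays, but the acetylcholine transporter gene Slc18a3 was above it in 0 arrays and the choline transporter gene Slc5a7 in 2. At 120 days the mean log2 level of these markers relative to all genes was 1.54 to 2.50 in controls and 0.689 to 1.01 in G93A animals. Of the 9, 1 had a higher mean in G93A animals at that age, namely Isl1. Its signals were 68.7, 115.4 and 92.5 in G93A animals and 60.1, 85 and 61.4 in controls. Of the 7 tested, 3 were lower at an unadjusted p below 0.05 in limma and 0 were called, beside 6.25% of all tested genes lower at that unadjusted p. Microglial markers stood at -0.462 to 1.16 in controls and 1.84 to 2.05 in G93A animals at that age, and all 13 had a higher mean in G93A animals, with Lgals3 passing the test. Their defining genes Aif1 and Itgam were above the median in 1 and 2 arrays. Oligodendrocyte markers, 9 genes, had mean levels relative to all genes of 1.86, 1.99 and 3.37 in controls at 60, 90 and 120 days. In G93A animals they had 2.6, 2.48 and 3.2. Motor neuron markers had 1.49, 2.06 and 2.04 in controls and 1.33, 1.74 and 0.883 in G93A animals. Oligodendrocyte markers thus lay above them in every group except the controls of 90 days. RNA quality was read from Gapdh, as the 3' over the 5' probe set on the log2 scale, which had group means of 3.36, 3.25 and 4.48 in controls and 4.14, 4.39 and 4.94 in G93A animals at 60, 90 and 120 days. In such captured samples, fewer cells of a type and less RNA per cell cannot be told apart. The part of these measures in the results on the mitochondrial ribosomal proteins was not tested, apart from fits with array controls as covariates.

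**Figure D1:**
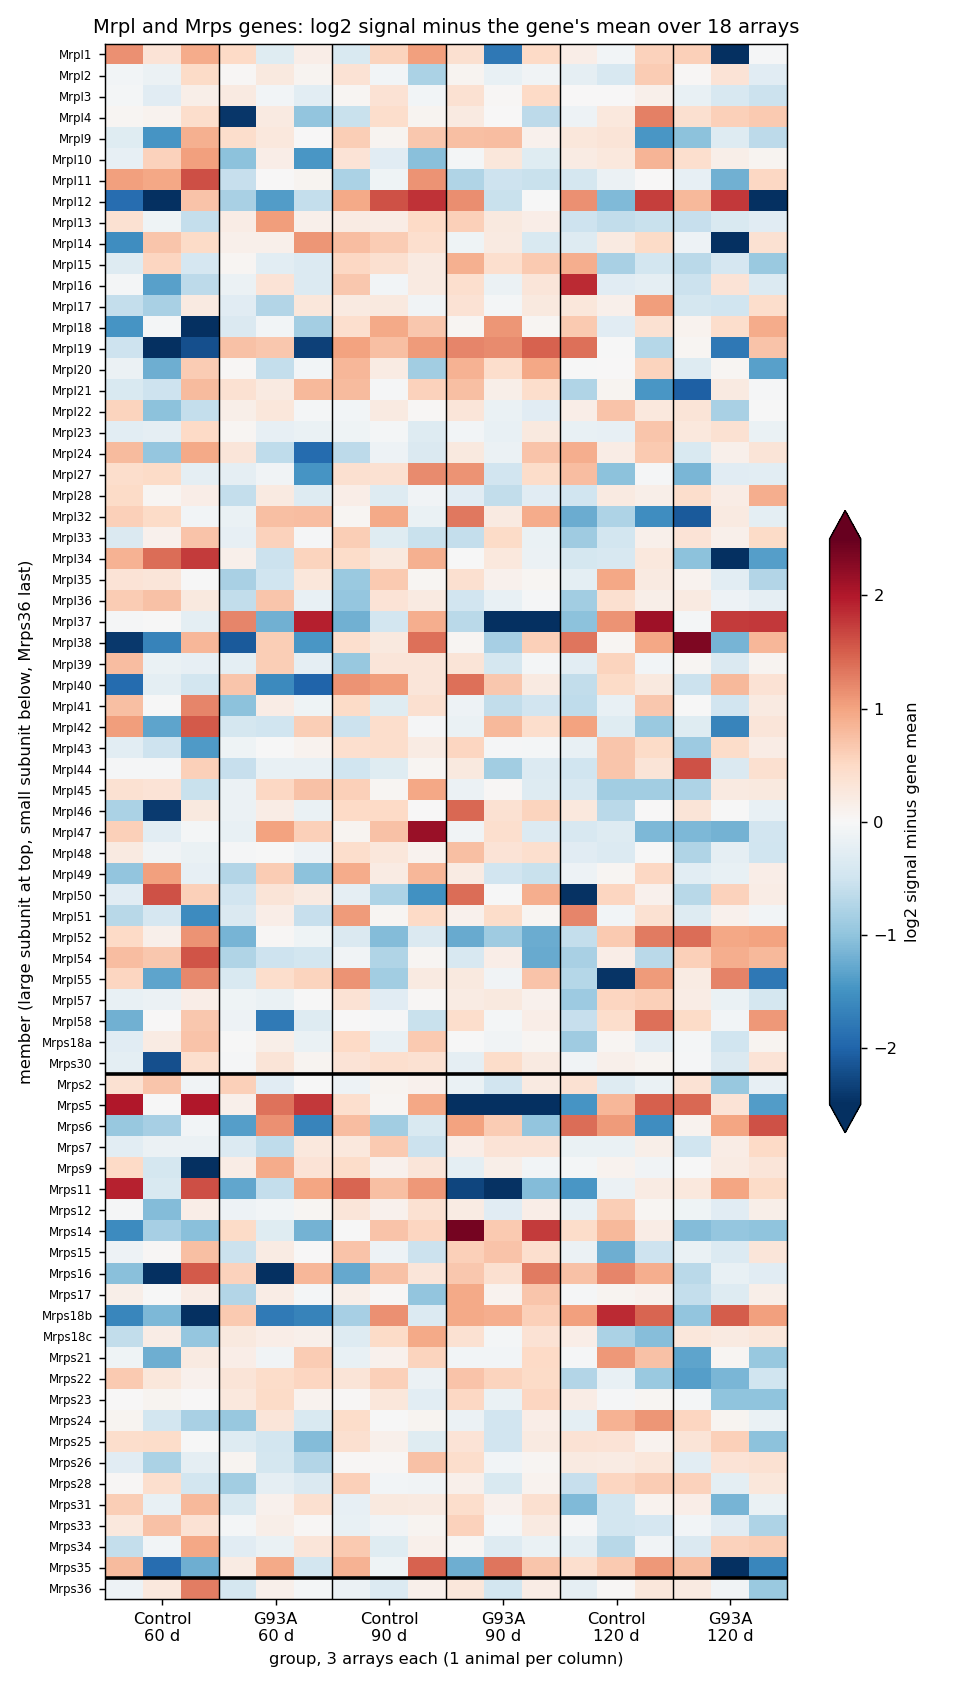
Each row is one of the 74 Mrpl and Mrps genes and each column one array, with 3 arrays per group, and the colour gives log2 signal minus the gene's mean over the 18 arrays (red higher, blue lower). Most rows stay pale, while Mrps5 and Mrps11 are dark blue in the G93A animals of 90 days and Mrps14 is red there.

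How far a member moved over the 6 groups varied widely. The distance between its highest and lowest group mean had a median of 1.19 log2 units. The smallest distances were those of Mrpl39 with 0.25, Mrpl2 with 0.28, Mrpl23 with 0.32 and Mrpl57 with 0.32, genes singled out after their values were seen. The largest was that of Mrps5, with 4.62. Its median was 1.23 over the 49 large-subunit members and 0.98 over the 24 small-subunit members. Mrps36, the remaining gene, is counted in neither, since later work places its protein in a metabolic enzyme complex. Group means were most often highest in the controls and the G93A animals of 90 days, with 17 members each, and least often in the G93A animals of 60 days, with 4. These counts rest on signals with no further normalization, and group means of the array median ran from 43.7 to 61.5. They were not made over all genes, so they show no pattern of the family's own.

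The first question was which members differ in level among the 6 groups, taking genotype and age together. An F test across the groups passed for 9 of the 73 tested members, or 12.3%, beside 8.95% of all tested probe sets. At an unadjusted p below 0.05 there were 19 members, or 26%, beside 25.8% of all tested genes. The members' shares lay near the background. The 9 were the small-subunit genes Mrps5, Mrps11, Mrps14 and Mrps22 and the large-subunit genes Mrpl11, Mrpl34, Mrpl47, Mrpl51 and Mrpl52.

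Mrps14 (Entrez 64659) encodes a small-subunit protein with a bacterial counterpart, in the head of that subunit, and had the lowest p of all members. At 60 days its signals were 97.4, 163 and 140.4 in controls and 405.1, 234.6 and 128.5 in G93A animals. At 90 days they were 288.1, 477.9 and 421.3 in controls and 1523.9, 454.6 and 975 in G93A animals. At 120 days they were 397.3, 505.3 and 331.1 in controls and 136.1, 148 and 144.2 in G93A animals. The genotypes overlapped at 60 and 90 days, and at 120 days every G93A animal lay below every control. In limma the 6-group F test gave an adjusted p of 0.000679. The genotype differences were 0.82 ± 0.41 at 60 days, 1.18 ± 0.41 at 90 days and -1.51 ± 0.41 at 120 days, the last with an adjusted p of 0.139.

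The change of the Mrps14 genotype difference with age passed its F test in limma, with an adjusted p of 0.0424. Between 60 and 120 days the difference moved by -2.32 ± 0.58, with an adjusted p of 0.0373. Between 90 and 120 days it moved by -2.69 ± 0.58, which did not pass (adjusted p = 0.279). The F test kept its call when any one of 6 arrays was left out (control replicates 1 and 2 and G93A replicate 3 of 60 days, replicate 2 of either genotype at 90 days, control replicate 3 of 120 days). Leaving out any one of the other 12 ended it, with adjusted p up to 0.137. A second Mrps14 probe set, above the median in 17 arrays, gave genotype differences of -0.02, 0.08 and -0.84 at the 3 ages and an adjusted p of 0.707 for the F test. Both probe sets were lower in G93A animals at 120 days, and the second did not show the higher means at 60 and 90 days.

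Promoter sequence is shown for 3 small-subunit members described here at length, Mrps14, Mrps11 and Mrps5, chosen after their values were seen. Each window runs from 250 bases before to 50 after the RefSeq gene start on build GRCm38.p6, on the plus strand, as chr1:160194965-160195264, chr7:78782881-78783180 and chr2:127587176-127587475. Capitals mark the motifs found: the GC box GGGCGG, bound by Sp1, on either strand, and the motif AAGATGGCG of the factor YY1, which reads reversed and complemented in Mrps11.
Mrps14: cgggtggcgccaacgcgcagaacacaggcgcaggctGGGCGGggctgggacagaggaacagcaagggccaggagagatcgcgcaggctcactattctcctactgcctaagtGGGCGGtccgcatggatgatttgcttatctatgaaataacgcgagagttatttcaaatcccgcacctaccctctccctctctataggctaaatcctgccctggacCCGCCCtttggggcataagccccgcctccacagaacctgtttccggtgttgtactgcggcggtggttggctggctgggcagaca
Mrps11: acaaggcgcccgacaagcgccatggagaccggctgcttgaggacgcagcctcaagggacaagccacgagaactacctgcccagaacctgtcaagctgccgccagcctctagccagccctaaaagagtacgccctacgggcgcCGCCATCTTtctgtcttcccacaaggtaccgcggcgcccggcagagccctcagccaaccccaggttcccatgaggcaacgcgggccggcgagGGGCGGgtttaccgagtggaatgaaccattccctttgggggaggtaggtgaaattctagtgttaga
Mrps5: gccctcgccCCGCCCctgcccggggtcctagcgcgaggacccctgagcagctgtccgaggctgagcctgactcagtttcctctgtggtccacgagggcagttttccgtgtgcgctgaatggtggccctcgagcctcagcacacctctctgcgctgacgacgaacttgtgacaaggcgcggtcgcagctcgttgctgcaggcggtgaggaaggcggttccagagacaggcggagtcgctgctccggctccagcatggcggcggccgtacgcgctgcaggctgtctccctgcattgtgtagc

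Mrps14 had 3 GC boxes, Mrps5 had 1, and Mrps11 had 1 together with the YY1 motif. Among 71 promoter windows of 65 members, 54.9% held a GC box, beside 46.2% of the promoters of protein-coding genes and 35.7% of all 32851 promoters. Some genes have several windows. Counted by gene, 34 of 65 members held a GC box, beside 8610 of 17491 protein-coding genes, a smaller gap. The YY1 motif was in 9.86% of the members' windows, 1.83% of protein-coding promoters and 1.4% of all. The ETS-family motif CCGGAAG, of the factors that include GABP, was in 33.8%, 11.6% and 8.86%, and the NRF1 motif GCGCATGC in 11.3%, 3.51% and 2.71%. NRF1 and GABP are known regulators of nuclear genes for mitochondrial proteins. Both strands were searched, the letters of these 4 motifs do not contain one another, and a match is a description of letters, not of binding.

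Mrps11 (Entrez 67994) encodes a protein of the small-subunit platform with a bacterial counterpart. Signals at 60 days were 200.3, 40.3 and 160.5 in controls and 21.4, 34.9 and 104.2 in G93A animals. At 90 days controls read 145.5, 88.9 and 111.1, and G93A animals 10.7, 9.5 and 24.9. At 120 days controls read 19.3, 47.4 and 60.6, and G93A animals 63.6, 103.9 and 73.9. The genotypes were separate at 90 days, with G93A animals lower, and again at 120 days, with G93A animals higher. The difference at 90 days was -3.05 ± 0.72, or 8.28-fold, with an adjusted p of 0.795 in limma, and at 120 days it was 1.05 ± 0.72. The G93A signals of 90 days lay far under the array median, and the difference there was -2.61 with signals under 16 set to 16 and -2.09, or 4.26-fold, with 16 added to every signal. The 6-group F test gave an adjusted p of 0.0314, which was lost without any one of 7 arrays, up to 0.103 without G93A replicate 1 of 90 days. The others were control replicates 1 and 3 of 60 and of 90 days, G93A replicate 2 of 90 days and G93A replicate 2 of 120 days.

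Mrps5 (Entrez 77721) encodes another small-subunit protein with a bacterial counterpart. Controls of 90 days read 33.5, 26 and 49.1, and G93A animals of that age read 2.3, 3.9 and 1.9. At 60 days signals were 100.6, 25.1 and 100.6 in controls and 27.4, 64.2 and 85.7 in G93A animals, and at 120 days 9.1, 44.6 and 71.1 against 68.4, 31.9 and 9.6. Only at 90 days were the genotypes separate. The difference there was -3.76 ± 0.96, or 13.6-fold, with an adjusted p of 0.795 in limma. With signals under 16 set to 16 it was -1.13, and with 16 added to every signal -1.46, or 2.19-fold and 2.75-fold. The 6-group F test gave an adjusted p of 0.0171, and 0.0738 and 0.0894 without G93A replicates 1 and 3 of 90 days. That call was also lost with signals under 16 set to 16 (adjusted p = 0.3004) and with 16 added to every signal (0.0883).

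Second probe sets of both genes did not share the dip at 90 days. For Mrps11 the second probe set gave -1.59, 0.12 and -0.36 at the 3 ages, and it was above the median in 3 arrays. For Mrps5 it gave 0.03, -0.07 and 0.09, and it was above the median in 5 arrays, against 6 for the brighter one.

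**Figure D2:**
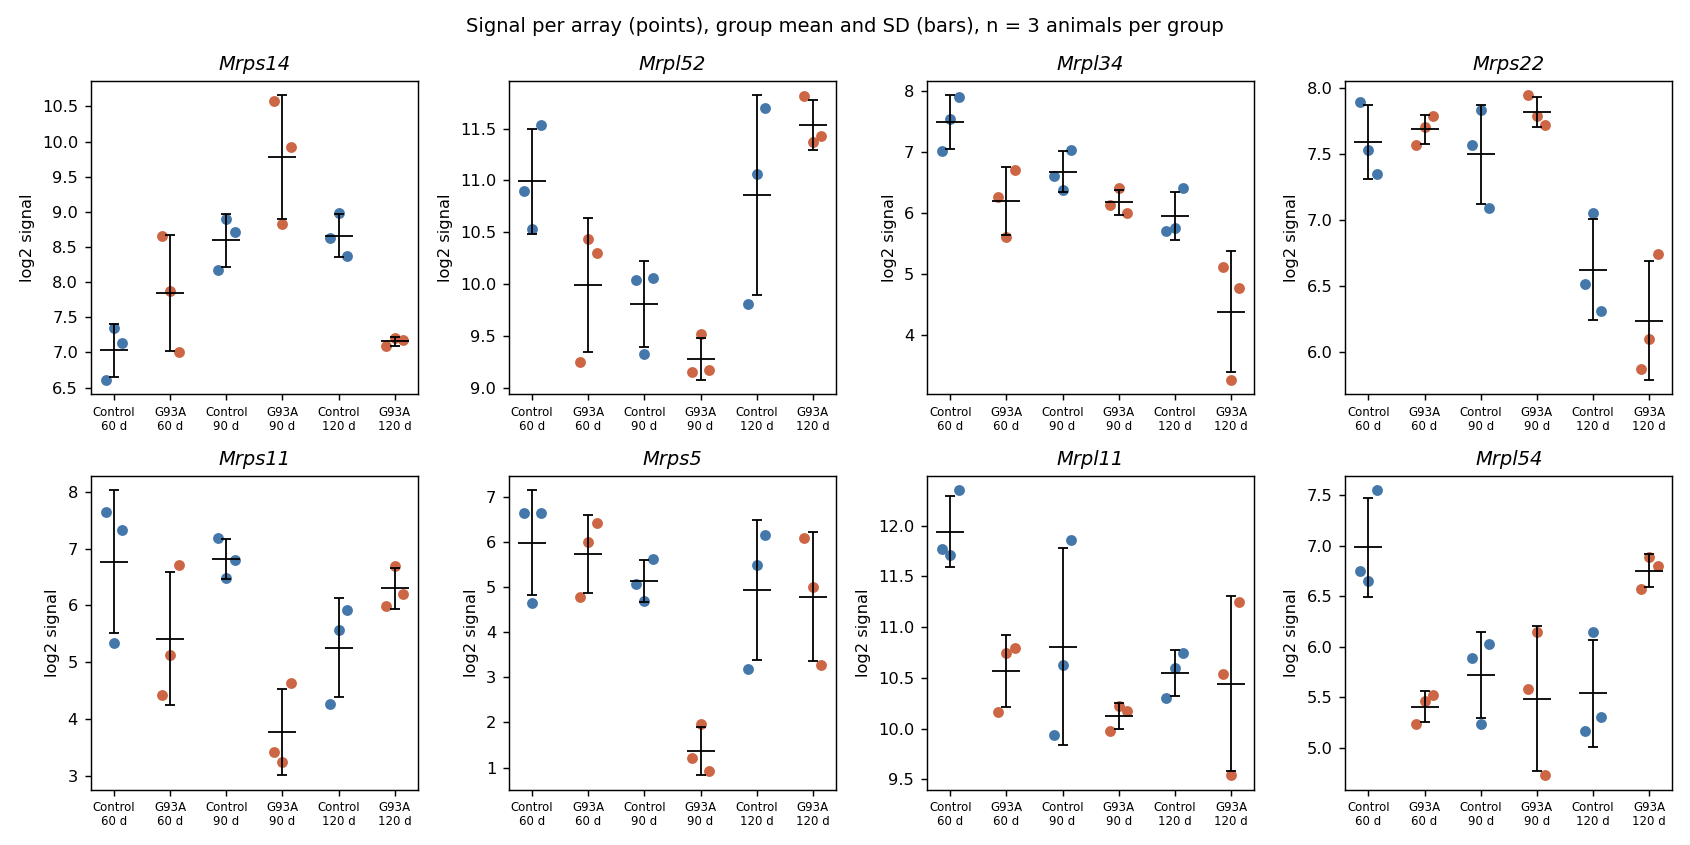
Points are log2 signals of single arrays (blue control, orange G93A) for 8 members, with group mean and SD as black bars, n = 3 animals per group. Mrps14 is high in G93A animals of 90 days and low in those of 120 days, and Mrps11 and Mrps5 are lowest in G93A animals of 90 days.

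Mrps22 (Entrez 64655), a small-subunit protein found only in mitochondria, was low at 120 days in both genotypes. Its signals were 238.5, 185.3 and 163.2 in controls and 190, 208.8 and 221.3 in G93A animals of 60 days. At 90 days they were 189.9, 228.5 and 136.4 against 247, 221.8 and 211.5. At 120 days controls read 91.2, 132.6 and 79.3, and G93A animals 58.5, 68.4 and 107. No animal of 120 days reached the level of any animal of 60 days. In limma the fall in G93A animals was -1.45 ± 0.36, with an adjusted p of 0.0348, and the difference in controls was -0.97 ± 0.36, with an adjusted p of 0.0966. The call in G93A animals was lost without any one of 6 arrays, with adjusted p up to 0.109: the 3 of 60 days, replicate 3 of 90 days, and replicates 1 and 2 of 120 days, all G93A. The 6-group adjusted p was 0.0131 and at most 0.046 with any 1 array left out. The array has 1 probe set for this gene.

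Mrpl52 (Entrez 68836), a large-subunit protein gained by mitochondria, was highest in G93A animals of 120 days. They read 3600.7, 2652 and 2751.9, and G93A animals of 60 and 90 days read 607.2, 1381 and 1261 and then 567.7, 732.1 and 577.9. Controls of 60 days read 1913, 1485.5 and 2972, controls of 90 days 1056.1, 642.9 and 1066.2, and controls of 120 days 898, 2143.4 and 3329.3. Thus the G93A animals of 120 days lay above all younger G93A animals, and the controls of 120 days spread from 898 to 3329.3. The rise from 60 to 120 days in G93A animals was 1.55 ± 0.40, with an adjusted p of 0.0433 in limma, and the 6-group adjusted p was 0.00328. Leaving out any one of 11 arrays ended the age call: the 9 G93A arrays and, among controls, replicate 1 of 60 days and replicate 2 of 120 days, with adjusted p up to 0.206. A second probe set had 0.33 for this comparison.

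Mrpl34 (Entrez 94065) encodes a small large-subunit protein with a bacterial counterpart, and its group mean was lowest in G93A animals of 120 days. At 60 days controls read 129.5, 186.2 and 238.1, and G93A animals 76.8, 48.7 and 104.7. At 90 days controls read 97.5, 83.3 and 131.4, and G93A animals 70.1, 84.5 and 63.8. At 120 days controls read 52.2, 53.8 and 84.6, and G93A animals 34.6, 9.6 and 27.4. The genotypes were separate at 60 and 120 days, with G93A animals lower at each, and overlapped at 90 days. Differences were -1.29 ± 0.54, -0.50 ± 0.54 and -1.57 ± 0.54, with a mean over the ages of -1.12 ± 0.31 (adjusted p = 0.345 in limma), the lowest p of any member in that comparison. The 6-group adjusted p was 0.00998 and stayed below 0.05 in each of 18 fits with 1 array left out. A second probe set gave 0.01, -0.11 and 0.62, with the other sign at 60 and 120 days.

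Mrpl11 (Entrez 66419), at the base of the stalk where translation factors bind, was highest in controls of 60 days. They read 3484.9, 3349.3 and 5203.2, above the 1143.5, 1716.3 and 1779.8 of G93A animals of that age and the 1262.1, 1547.9 and 1712.4 of controls of 120 days. The values at 90 days were 981.1, 1578.8 and 3713 in controls and 1007.6, 1194.5 and 1158.2 in G93A animals, and those of G93A animals of 120 days 1487.7, 744.4 and 2436. In limma the fall with age in controls was -1.39 ± 0.41, or 2.63-fold, with an adjusted p of 0.0392. Leaving out any of the 6 arrays compared, or G93A replicate 3 of 90 days, ended this call, with adjusted p up to 0.140. The probe set is marked as open to cross-hybridization. The next brightest Mrpl11 probe set gave -0.61 for this comparison. Another Mrpl11 probe set without that mark gave the opposite call, 2.85 with an adjusted p of 0.00797. Thus no direction can be given for this gene in ageing controls. Its 6-group adjusted p was 0.0426, and it was lost without any one of 9 arrays: the 3 controls of 60 days, the 3 G93A arrays of 90 days, G93A replicate 3 of 60 days, control replicate 2 of 120 days and G93A replicate 1 of 120 days.

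Mrpl47 (Entrez 74600), near the exit of the peptide tunnel, was low at 120 days, with 370.2, 388.6 and 223.8 in controls and 224, 214.1 and 349.7 in G93A animals. Younger animals read 386.3 to 2166.3, the highest being a control of 90 days. In limma the 6-group adjusted p was 0.0251, and 0.0667 and 0.0735 without G93A replicates 1 and 2 of 120 days. The difference from 60 to 120 days in G93A animals was -1.40 ± 0.42 (adjusted p = 0.0815), and it passed without control replicate 3 of 90 days, at 0.0396. Only 1 probe set stands for Mrpl47.

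**Figure D3:**
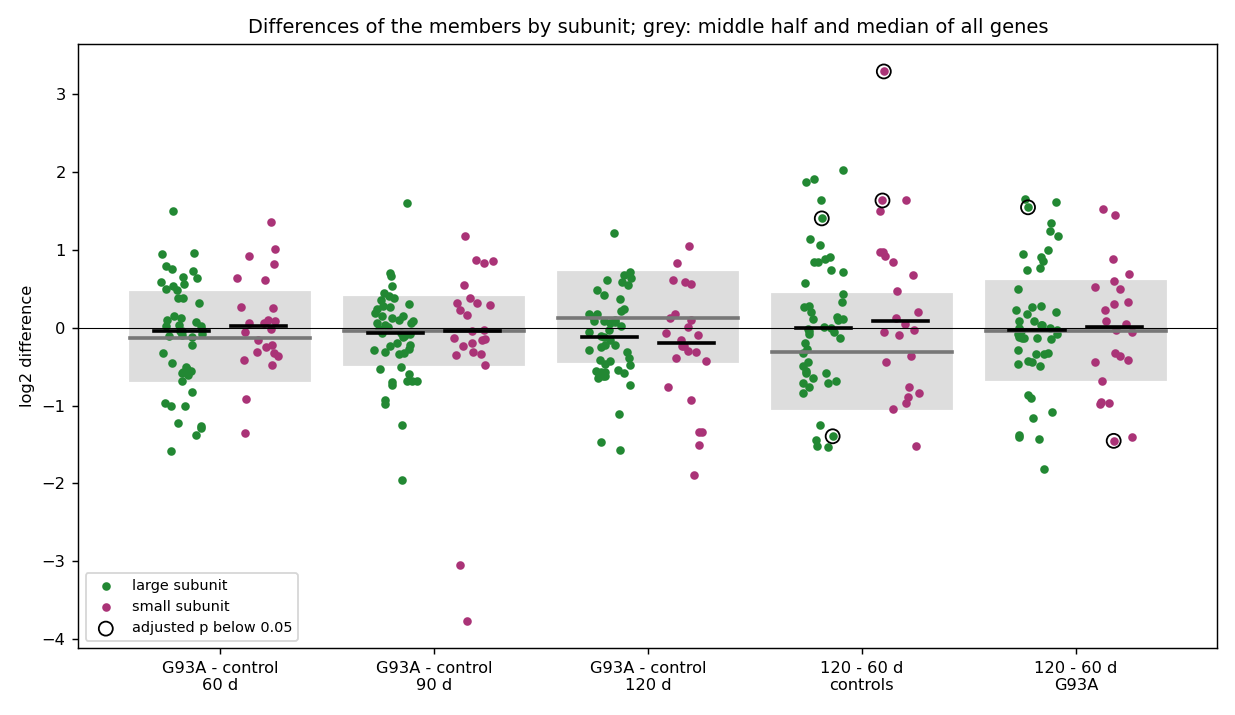
Points are log2 differences of single members by subunit (green large, 49 genes, and purple small, 24 genes, including the untested Mrps6) in 5 comparisons, black lines are their medians, and grey boxes with a line give the middle quartiles and median of all genes. No member is circled as passing in the genotype comparisons, 4 are in ageing controls and 2 in ageing G93A animals.

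The main comparison of the design sets G93A animals against controls at each age. At 60 days limma called 0 of the 73 tested members, beside 0.688% of all tested probe sets. At an unadjusted p below 0.05, 1 member was higher and 7 were lower, or 1.37% and 9.59%, beside 8.1% and 4.87% of all tested genes. Without overlap between the genotypes 2 were higher and 7 lower, beside 8.19% and 10.8%. Over all 74 members the median difference was -0.04, and 35 lay above 0. The median over all genes was -0.14.

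Among members lower in every G93A animal of 60 days, Mrpl54, a large-subunit protein gained by mitochondria, had the largest difference. Its signals were 107.8, 100.6 and 187.3 in controls and 37.6, 44.2 and 45.9 in G93A animals, a difference of -1.58 ± 0.54 (adjusted p = 0.184 in limma). At 120 days the order was turned, with 36, 70.8 and 39.6 in controls and 95.1, 118.7 and 111.5 in G93A animals, a difference of 1.21 ± 0.54 (adjusted p = 0.364). At 90 days the genotypes overlapped, with 59.2, 37.7 and 65.5 against 47.8, 71.1 and 26.5. The F test for a change of the difference with age had an adjusted p of 0.156. Mrpl54 has 1 probe set.

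Mrpl11 differed by -1.37 ± 0.41 at 60 days, with the lowest adjusted p of any member there, 0.124. When control replicate 1 of 60 days was left out, Mrps9 alone was called at that age, higher by 2.04 (adjusted p = 0.0216). Mrpl52 differed by -0.999 ± 0.396. Mrps25 (111.7, 113.3 and 81.4 in controls against 65.7, 59.7 and 38.7) differed by -0.92, Mrpl44, which resembles a ribonuclease, by -0.50, and Mrps33 by -0.41. The members higher in every G93A animal were Mrpl43, with 119.2, 99.1 and 53.7 against 132, 142.6 and 152.2 and a difference of 0.73, and Mrps23, with a difference of 0.25. None of these passed.

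At 90 days limma called 0 members and 0% of all tested probe sets. Unadjusted, 3 members were higher and 3 lower, beside 2.55% and 2.18% of all tested genes, and without overlap 2 were higher and 4 lower, beside 5.74% and 5.82%. The lowest adjusted p of a member was 0.795, for Mrps11 and Mrps5. Mrpl45, which lies at the membrane side of the large subunit, read 146, 101 and 190.3 in controls and 87.6, 98.4 and 77.5 in G93A animals, a difference of -0.69. Mrpl14 also differed by -0.69. Mrpl50 was higher in every G93A animal, with 44.1, 30.1 and 18 against 136, 51.1 and 96.9 and a difference of 1.61 ± 0.75. Mrpl19 differed by 0.35, with the opposite sign once an array control was a covariate. The median over the 74 members was -0.05, with 34 above 0, and -0.04 over all genes.

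At 120 days limma called 0 members, beside 0.0241% of all tested probe sets. Unadjusted, 2 were higher and 4 lower, beside 5.69% and 6.25% of all tested genes, and without overlap 3 were higher and 5 lower, beside 9.42% and 6.72%. Beside Mrps14 and Mrpl34, Mrps23, a small-subunit protein gained by mitochondria, was lower in every G93A animal: 144.9, 74.3 and 74.2 against 170.5, 147.3 and 155.3 in controls, a difference of -0.76 ± 0.36 (adjusted p = 0.394). Mrps16 read 97.3, 137 and 110.4 in controls and 36.9, 51.5 and 48.2 in G93A animals, a difference of -1.34 ± 0.92. Mrpl3 (306, 305.9 and 334.3 against 268.4, 231.1 and 209.8) differed by -0.42, but the mean over all its probe sets was higher in G93A animals, by 0.40. Mrps18c was higher in every G93A animal, with 212.8, 206 and 213.2 against 196.6, 101.1 and 83.5, a difference of 0.83 ± 0.39 (adjusted p = 0.397).

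At 120 days the members' median difference and that of all genes had opposite signs. The median difference over the 74 members was -0.16, with 30 above 0, while that of all genes was 0.12. Of the 74 members, 22 lay above the all-gene median. The medians were -0.12 over the large subunit and -0.19 over the small subunit. With each array centred on its median signal, the members' median was -0.48 with 15 above 0, and that of all genes -0.20. With quantile normalization it was -0.16 with 25 above 0, and that of all genes -0.04. The gap between members and all genes was -0.28 as reported and -0.12 with quantile normalization. Centring shifts all genes of an array alike, so it cannot change this gap. Unadjusted calls were 0 higher and 9 lower with centring, or 0% and 12.3%, beside 2.41% and 11.8% of all tested genes. With quantile normalization they were 2 higher and 5 lower, or 2.74% and 6.85%, beside 3.88% and 6.68%.

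Within each array, the mean log2 signal of the members minus that of all genes gives the family's relative level. At 120 days it was 1.43, 1.40 and 1.49 in controls and 1.10, 1.04 and 1.15 in G93A animals, with no overlap. The members' own mean log2 signal overlapped, with 7.02, 7.17 and 7.31 in controls and 7.01, 6.91 and 7.06 in G93A animals, while that of all genes was 5.59, 5.77 and 5.81 against 5.91, 5.87 and 5.91. At 60 days the relative level was 1.08, 0.761 and 1.21 against 1.07, 1.21 and 0.939, and at 90 days 1.38, 1.50 and 1.42 against 1.54, 1.19 and 1.35, with overlap at both. Controls of 120 days lay in the range of controls of 90 days, and G93A animals of 120 days lay in the range of the animals of 60 days. The small subunit read 1.14, 1.25 and 1.12 in controls of 120 days and 0.755, 0.764 and 0.744 in G93A animals. The large subunit read 1.56, 1.46 and 1.66 against 1.26, 1.17 and 1.37. These levels describe the arrays and carry no test. At 120 days the lower relative level of G93A animals went with lower motor neuron markers, Isl1 apart, and the higher microglial markers given above. Group means of the relative level were 1.017 in controls and 1.075 in G93A animals of 60 days, and 1.099 in G93A animals of 120 days. In that order, motor neuron markers averaged 1.49, 1.33 and 0.883, and microglial markers 0.190, 0.658 and 1.93. The part of these markers in the relative level was not tested.

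**Figure D4:**
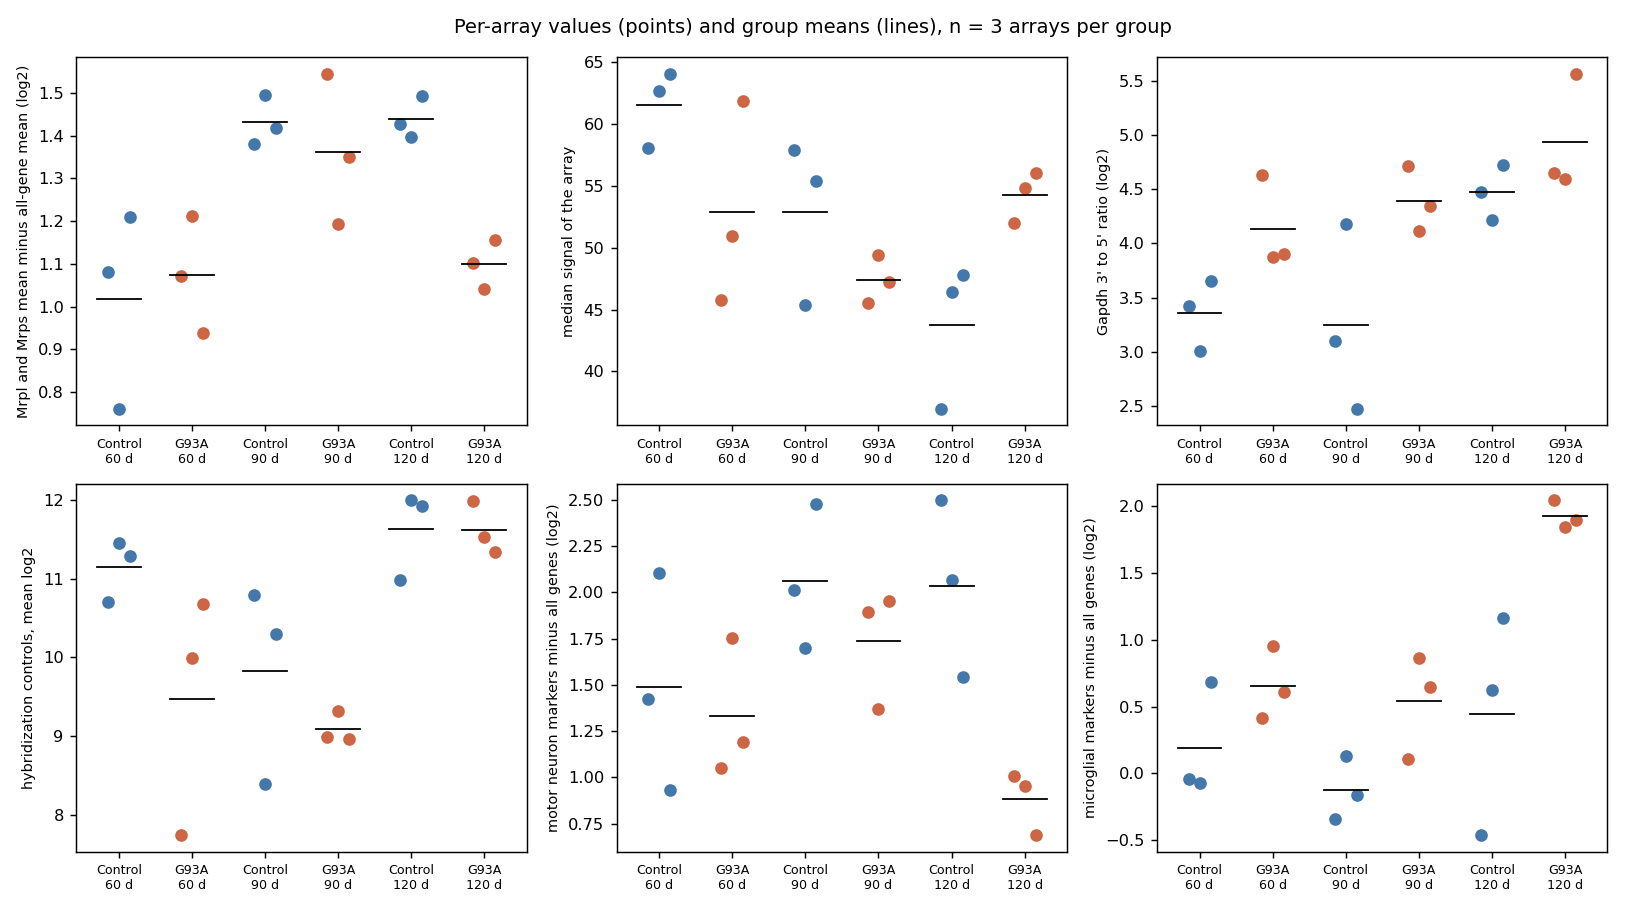
Each panel gives one measure per array (points; blue control, orange G93A) with the group mean as a line, n = 3 arrays per group: the members' mean log2 signal minus that of all genes, the median signal, the Gapdh 3' to 5' ratio, the hybridization controls, and the motor neuron and microglial marker levels. At 120 days the members' level is 1.40 to 1.49 in controls and 1.04 to 1.15 in G93A animals, where motor neuron markers are lower and microglial markers higher.

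Averaged over the 3 ages, limma called 0 members, beside 0.0121% of all tested probe sets. At an unadjusted p below 0.05 no member was higher and 5 were lower, beside 4.56% and 3.52% of all tested genes. The 5 were Mrpl34, Mrpl11 with -0.72, Mrps11 with -1.12, Mrps5 with -1.39 and Mrpl41 with -0.53. For Mrps5 this mean was -0.52 with signals under 16 set to 16, and 0.02 in its second probe set. On the higher side the lowest p-values were those of Mrps18c with 0.44, Mrpl46 with 0.52, Mrpl13 with 0.25, Mrps9 with 0.39 and Mrpl50 with 0.55. The median over all members was -0.07, with 27 above 0, and -0.01 over all genes. For the change of the difference with age, 1 of 73 members passed, or 1.37%, beside 0.417% of all tested probe sets, and 7 had an unadjusted p below 0.05, or 9.59%, beside 13.2% of all tested genes.

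Age was compared between 120 and 60 days within each genotype. In controls limma called 4 members, 3 higher and 1 lower, beside 6.71% of all tested probe sets. Unadjusted, 10 were higher and 9 lower, beside 10.8% and 13.8% of all tested genes. Mrps14 rose by 1.63 ± 0.41 (adjusted p = 0.0190), a call lost without control replicate 1 of 60 days or replicate 2 of 120 days (adjusted p = 0.0663 and 0.0642). Its second probe set had -0.07.

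Mrpl51, a large-subunit protein gained by mitochondria, read 426.4, 514.2 and 232.3 in controls of 60 days and 1614, 653.8 and 892.6 in those of 120 days. In limma it rose by 1.40 ± 0.35 (adjusted p = 0.0193), and the call was lost without control replicate 3 of 60 days or replicate 1 of 120 days, at 0.105 each. Its other probe sets had -1.06 and -2.36, so the direction depends on the probe set. The 6-group adjusted p of Mrpl51 was 0.0453, and leaving out any one of 13 arrays ended that call. The 5 that did not were replicate 2 of both genotypes at 60 days, control replicate 2 of 90 days, and control replicates 1 and 2 of 120 days.

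Mrps18b is one of the proteins related to bacterial S18, and its controls of 60 days read 8.1, 11.6 and 3.7 and those of 120 days 51.5, 91.5 and 68.9. It rose by 3.29 ± 0.92 in limma (adjusted p = 0.0322), from signals far under the array median. With signals under 16 set to 16 the rise was 2.10 (adjusted p = 0.0425), and with 16 added to every signal 1.85, or 3.61-fold (adjusted p = 0.0297). The call was lost without control replicates 1 or 3 of 60 days or any control of 120 days, with adjusted p up to 0.107. In G93A animals the values were 39.8, 7.4 and 7.9 at 60 days and 12.7, 72.1 and 51.4 at 120 days, with overlap.

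Other members in ageing controls did not pass: Mrpl19 had 2.03, Mrpl43 1.06, Mrpl34 -1.53, Mrpl32 -1.52 and Mrpl54 -1.44. Without G93A replicate 2 of 120 days Mrpl34 passed, at an adjusted p of 0.0491. The median over all members was 0.00, with 37 above 0, and -0.31 over all genes. With centring it was 0.51 with 54 above 0, beside 0.19 for all genes, and 8 members were called, all of them higher, beside 9.48% of all probe sets. With quantile normalization it was 0.15, and 2 were called higher and 1 lower, beside 5.7%. The balance of rises and falls in ageing controls therefore depended on the scaling.

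In G93A animals limma called Mrpl52 as higher and Mrps22 as lower at 120 days, beside 2% of all tested probe sets. Unadjusted, 6 members were higher and 7 lower, beside 7.19% and 10.1% of all tested genes. Mrpl58, which frees peptides from stalled ribosomes, had 1.24 ± 0.51, Mrpl4 1.62 ± 0.50, Mrpl54 1.35 and Mrpl28 0.74. On the lower side Mrpl34 had -1.81 ± 0.54, Mrps23 -0.97 and Mrpl13 -0.86. Mrpl4 passed without G93A replicate 2 of 60 days, at an adjusted p of 0.0373. The median over all members was -0.03, and -0.05 over all genes.

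How well a gene's probe sets matched was examined for the 27 members with a second tested probe set. The sign of the genotype difference was the same in 18 of 27 at 60 days, 16 at 90 days and 12 at 120 days. It was the same in 17 for ageing in either genotype. The 2 differences lay more than 1 log2 unit apart for 4, 6 and 8 members at the 3 ages and for 13 in ageing controls. Of 39 further tested probe sets of members, 0 were called in the genotype comparisons, beside at most 0.688% of all tested probe sets. In ageing controls 5 of the 39 were called, beside 6.71%: higher for Mrpl11, Mrps9 and Mrps24, and lower for Mrpl52 and Mrpl28.

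**Figure D5:**
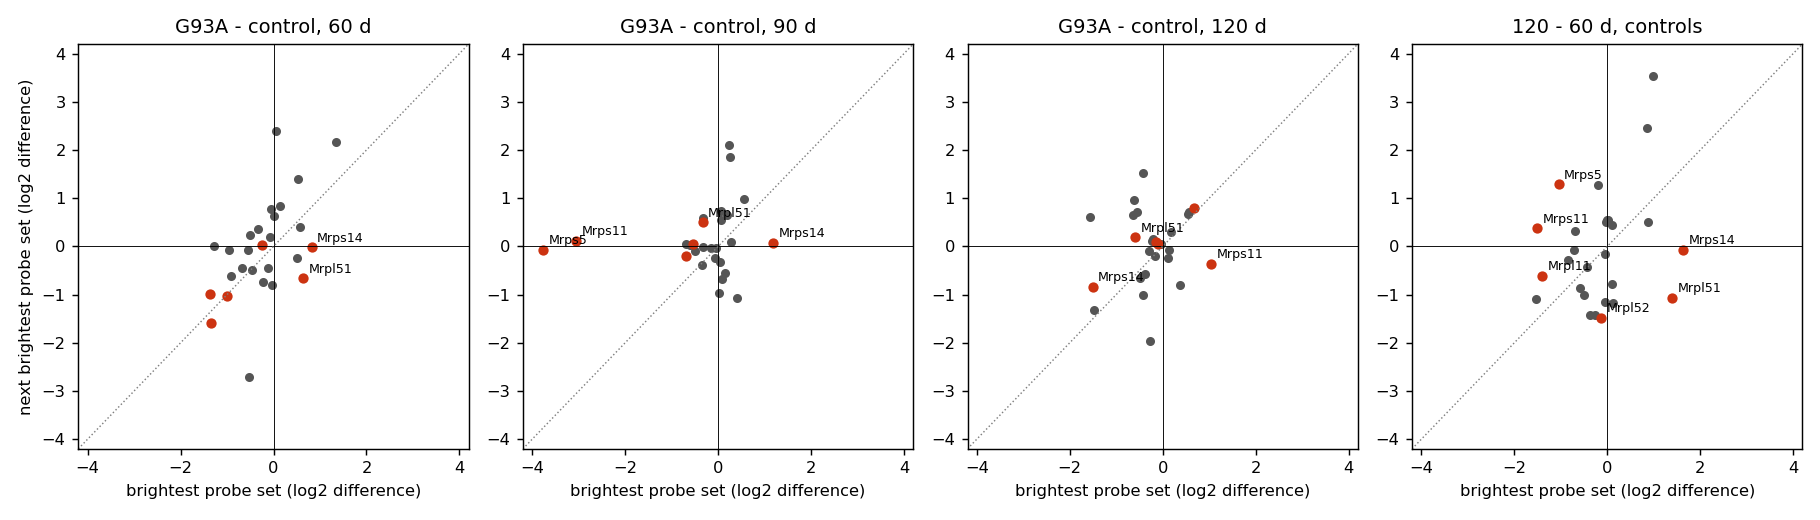
Each point is one of 27 members with 2 tested probe sets, with the log2 difference of the brightest on the horizontal axis and of the next brightest on the vertical axis, red points mark Mrps5, Mrps11, Mrps14, Mrpl11, Mrpl51 and Mrpl52, and the dotted line marks equal values. Mrps5 and Mrps11 lie at -3.76 and -3.05 on the horizontal axis at 90 days and near 0 on the vertical one, and Mrpl51 has opposite signs in ageing controls.

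Some members are of interest for what their proteins do. Mrpl12, in the flexible stalk and also known to bind the mitochondrial RNA polymerase, varied most between animals, with signals from 5.8 to 138 and groups that all overlapped their littermates. Mrps18a and Mrps30 carry small-subunit symbols, but their proteins lie in the large subunit. Signals of Mrps18a ran from 44.7 to 135.7 and those of Mrps30 from 19.5 to 123.3. Mrps36 ran from 95 to 438.2, the highest in a control of 60 days. These 4 genes passed in none of the comparisons.

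Genes that work with the mitochondrial ribosome gave the same count of genotype calls, 0 at each age. The share of all tested probe sets called was 0.688%, 0% and 0.0241% at 60, 90 and 120 days. Limma called 0 at any age among the tested genes: 4 ribosomal proteins with other symbols, 8 translation factors, 18 of 20 assembly and RNA-processing genes, 11 of 13 aminoacyl-tRNA synthetases and 12 of 15 genes for mitochondrial DNA expression. At an unadjusted p below 0.05, 6 of these 53 tested genes were higher at 60 days and 0 lower, or 11.3% and 0%, beside 8.1% and 4.87% of all tested genes. At 90 days 2 were higher and 0 lower, beside 2.55% and 2.18%, and at 120 days 0 higher and 1 lower, beside 5.69% and 6.25%. Among the 6 higher at 60 days were Chchd1, a small-subunit protein, with 1.43 ± 0.43 (adjusted p = 0.124 in limma), and Qrsl1 with 1.49 ± 0.45 (adjusted p = 0.125). Qrsl1 is part of the enzyme that makes mitochondrial glutaminyl-tRNA. Fastkd2, which binds mitochondrial ribosomal RNA, rose by 1.50 ± 0.41 in ageing controls (adjusted p = 0.0275). Qrsl1 fell by 2.13 ± 0.45 on the log2 scale in ageing G93A animals (adjusted p = 0.0162).

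The 44 cytosolic ribosomal proteins, which build the ribosomes outside mitochondria, had median genotype differences of 0.22, 0.23 and 0.14 at the 3 ages. Limma called 0 of them, beside 0.688%, 0% and 0.0241% of all tested probe sets. Unadjusted, 7, 4 and 3 of the 44 were higher, beside 8.1%, 2.55% and 5.69% of all tested genes. On the lower side there were 2, 0 and 0, beside 4.87%, 2.18% and 6.25%. In ageing controls 9 of the 44 were called higher and 1 lower, beside 6.71% of all tested probe sets. In ageing G93A animals 5 were called higher and 0 lower, beside 2%. The medians of the 44 with age were 0.43 and 0.44, against 0.00 and -0.03 for the mitochondrial ribosomal proteins. Whether the families differed was not tested.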

How the data were processed

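RNA from laser-captured lumbar motor neurons was measured on 18 one-colour arrays, 1 per animal, in 6 groups taken from the sample titles. Each array's deposited file column gives the signal intensity of every probe set as the authors computed it; the submitters' processing notes name MAS5, with settings not given in the sources used here. Genes were named from GEO's platform annotation, and all 74 members matched RefSeq by Entrez identifier. Of 22690 probe sets, 64 controls, 1555 unnamed and 691 with several symbols represented no gene; 3 of the last carried a member symbol.

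Signals were set to at least 1, which affected 0.236% of values and 0 of 1332 member values, and put on the log2 scale with no further normalization. Probe sets above their array's median in at least 3 of 18 arrays were tested (16565). Differences, standard errors and two-sided p-values came from limma 3.58.1 in R 4.3.3, with 6 group means over all 18 arrays, empirical Bayes moderation with a trend, 12 residual degrees of freedom, and Benjamini-Hochberg adjustment over all tested probe sets of a comparison at 0.05. The procedure was tested on simulated data. Counts at an unadjusted p, or without overlap, are over 1 probe set per gene.

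The members and lists were chosen with earlier results of these data known. Named with values were all called members, up to 8 members per direction of lowest p without overlap at each age, up to 5 per direction for the mean and the age comparisons, up to 5 for F tests, and 6 set members (Mrps5, Mrps11, Mrps18a, Mrps30, Mrps36, Mrpl12). Animals with equal sample numbers were treated as unpaired, since the labels name no shared source for them. Deviations of same-numbered arrays correlated at -0.116 to 0.0576, which cannot show whether they shared a litter or day. Alternatives covered scaling, floor, filter, probe set choice, covariates, weights and single arrays left out.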

Additional observations from a re-analysis of the deposited data

Results flagged for a closer look

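The genotype difference of Mrps14 changed with age in the limma F test, with an adjusted p of 0.0424; its differences went from 0.82 at 60 days to -1.51 at 120 days, and its second probe set did not share the change (adjusted p = 0.707).

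For 3 further members every G93A animal lay on one side of the controls at one age and on the other side at another. Such turns were not counted over all genes, so these 3 show no trait of the family. At single ages, 5.74% to 10.8% of all tested genes lay without overlap in a given direction. Mrpl54 had a log2 difference of -1.58 at 60 days and 1.21 at 120 days. Mrps11 had -3.05 at 90 days and 1.05 at 120 days. Mrps23 had 0.247 at 60 days and -0.763 at 120 days. In the limma F test for a change with age these did not pass, with adjusted p of 0.156, 0.112 and 0.454. Between 60 and 120 days alone the Mrpl54 difference moved by 2.79 ± 0.76, with an adjusted p of 0.0543.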

How the results depend on the processing

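All 4 genotype comparisons gave 0 called members in every setting tried, apart from Mrps9 at 60 days without control replicate 1 of that age. The median member difference moved by more than the pooled SD with centring, to 0.19 at 60 days, 0.10 at 90 days, -0.48 at 120 days and 0.51 in ageing controls, and with quantile normalization to 0.15 in ageing controls. Calls in ageing controls, 4 as reported, were 8 with centring, 2 with only the compared groups fitted, 1 with array weights, 1 without the trend and 0 with the Gapdh ratio as covariate; the share of all probe sets moved too, from 6.71% to 9.48%, 2%, 4.03%, 3.31% and 0.863%. Those in ageing G93A animals, 2 as reported, were 1 with quantile normalization, 1 with centring, 0 without a filter, 0 without the trend and 0 with the hybridization controls as covariate, beside 1.91%, 1.2%, 1.05%, 0.187% and 0.169% of all probe sets. The change with age of Mrps14, the 1 such call, was 0 calls with quantile normalization, without a filter, with the stricter filter, without the trend and with either covariate. The 9 members differing among groups became 3 without the trend, 2 with the hybridization and 5 with the Gapdh covariate, beside 2.2%, 3.86% and 5.89% of all probe sets. The causes were not tested.

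With single arrays left out, called members ranged from 0 to 1 at 60 days, 1 to 5 in ageing controls, 0 to 3 in ageing G93A animals, 0 to 1 for the change with age, and 5 to 10 among groups (5 without G93A replicate 1 of 90 days). The sign turned for Mrpl19 at 90 days (-0.082 and -0.27 with the hybridization and Gapdh covariates), for Mrps5 at 60 days (0.77 and 0.32) and at 120 days (0.19 with Gapdh), and, with the mean of all probe sets, for Mrpl3 at 120 days (0.40) and Mrpl51 in ageing controls (-0.67). For Mrps5, single arrays moved the difference between -0.92 and 0.23 at 60 days and between -1.03 and 0.61 at 120 days.

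With the replicate number as a block (replicate block), 4 and 2 members were called in ageing controls and G93A animals, 9 among groups, and Mrps14 had an adjusted p of 0.0488 for the change with age in limma; no call count changed. Members near or under the array median, such as Mrps5 and Mrps18b, are limited by low signal: with 16 added to each signal, the difference of Mrps5 at 90 days was -1.46.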
